A study of Homo sapiens with 16 samples.

Results

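The genes described here are 32 members of the sterol and fatty acid synthesis programme in CCD-1070Sk, an established line of normal human skin fibroblasts. The list is one of function (the pathway's regulators, enzymes and lipid handling proteins) with no threshold on a measured value, but it was chosen with earlier results of these data known. All 32 were found among the 28374 genes of the count table. All cells were serum-starved. The control cells received nothing further and were recorded at 0 h. EGF, the epidermal growth factor, was given at 30 ng/ml for 1 h, and TPA, a phorbol ester that activates protein kinase C, at 100 nM for 1 h. H89, an inhibitor used against protein kinase A and also known to act on other kinases, was given at 10 µM for 30 min, either alone (recorded at 0 h) or ahead of EGF or TPA. By the labels there were 3 samples each of EGF and H89, 2 each of TPA, EGF+H89 and TPA+H89, and 4 controls, each an rRNA-depleted, strand-specific RNA library. Controls 3 and 4 held the same count for every gene and were counted as 1, which left 3 controls and 15 libraries in all. Whether the replicates are separate cultures is not stated, and the tests therefore speak only of the variation among these libraries, which may be technical.

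Cells hold their sterol supply steady through SREBP transcription factors, which are made as inactive precursors in the endoplasmic reticulum. The escort protein SCAP carries them to the Golgi for cleavage when sterols are low, and the INSIG proteins retain SCAP when sterols are high. The released factors switch on the mevalonate, cholesterol and fatty acid enzymes, and also INSIG1, whose product feeds back on the same step. Fibroblasts make their own cholesterol in this way.

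The stretches upstream of 6 members are shown because these genes open the account of the expression data. INSIG1 passed the test after TPA. IDI1, HMGCS1 and SCD were above every control in both TPA libraries, but higher in the first than in the second. SREBF2 encodes one of the factors, and INSIG2 is the paralogue of INSIG1 whose level was low. Each is the 250 bases before a RefSeq start in the build GRCh38.p14, read 5′ to 3′ along the gene, with 1 start chosen for genes that have several. Capitals mark matches, on either strand, to the sterol element core CACNCCAC, to the factor NF-Y's box CCAAT, to the beginning of the cyclic AMP element TGACGT and to the E-box CACGTG. At SREBF2 they extend over the longer sterol element TCACNCCAC. The printed starts of IDI1 and HMGCS1 hold such matches, while another start of each, not printed, holds none.
INSIG1, chr7:155297628-155297877, plus strand: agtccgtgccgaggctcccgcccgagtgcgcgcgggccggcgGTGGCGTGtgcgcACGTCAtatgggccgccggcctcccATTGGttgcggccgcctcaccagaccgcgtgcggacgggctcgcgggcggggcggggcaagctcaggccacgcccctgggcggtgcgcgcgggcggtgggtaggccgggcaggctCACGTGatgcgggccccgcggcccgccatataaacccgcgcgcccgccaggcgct
IDI1, chr10:1048887-1049136, minus strand: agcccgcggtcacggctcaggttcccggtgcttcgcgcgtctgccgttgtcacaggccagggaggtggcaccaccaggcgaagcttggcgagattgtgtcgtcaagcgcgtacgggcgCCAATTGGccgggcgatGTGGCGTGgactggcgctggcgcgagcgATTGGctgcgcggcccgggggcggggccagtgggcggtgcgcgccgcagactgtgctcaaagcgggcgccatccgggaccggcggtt
HMGCS1, chr5:43313413-43313662, minus strand: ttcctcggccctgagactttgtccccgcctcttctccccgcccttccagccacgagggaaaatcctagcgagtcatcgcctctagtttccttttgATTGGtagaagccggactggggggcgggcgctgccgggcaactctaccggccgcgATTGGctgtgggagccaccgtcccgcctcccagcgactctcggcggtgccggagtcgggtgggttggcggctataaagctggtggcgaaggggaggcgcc
SREBF2, chr22:41832855-41833104, plus strand: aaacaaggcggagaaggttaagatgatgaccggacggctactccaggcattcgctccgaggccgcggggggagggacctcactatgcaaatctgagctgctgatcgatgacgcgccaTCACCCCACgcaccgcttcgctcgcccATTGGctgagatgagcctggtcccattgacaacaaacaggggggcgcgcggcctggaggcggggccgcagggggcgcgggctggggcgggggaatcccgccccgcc
SCD, chr10:100346983-100347232, plus strand: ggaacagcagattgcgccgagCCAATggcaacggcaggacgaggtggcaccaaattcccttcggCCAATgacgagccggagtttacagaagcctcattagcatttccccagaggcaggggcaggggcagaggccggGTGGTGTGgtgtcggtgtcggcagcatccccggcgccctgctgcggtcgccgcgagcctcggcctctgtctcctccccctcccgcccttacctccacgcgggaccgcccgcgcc
INSIG2, chr2:118088221-118088470, plus strand: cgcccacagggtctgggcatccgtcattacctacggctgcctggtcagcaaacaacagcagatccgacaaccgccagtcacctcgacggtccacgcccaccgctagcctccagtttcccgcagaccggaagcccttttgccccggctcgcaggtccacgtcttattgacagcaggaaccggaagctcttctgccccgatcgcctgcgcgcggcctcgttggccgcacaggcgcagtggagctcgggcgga

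Windows of this kind were found for 28 of the 32 members, and ACAT2, FDFT1, SQLE and FASN had none. The sterol core CACNCCAC stood before at least one start of 6 of the 28 members (21.4%), INSIG1, SREBF2, IDI1, SC5D, ACACA and SCD, and of 5.89% of all 27305 genes with a window. The longer sterol element TCACNCCAC, which contains that core, was found at SREBF2 alone (3.57%), against 1.09% of all genes. CCAAT was found at 19 members (67.9%) and 37% of all genes. TGACGT was found at 4 members (14.3%), INSIG1, MVD, IDI1 and FADS1, and at 8.62% of all genes. The E-box CACGTG was found at 3 members (10.7%), INSIG1, SCAP and SC5D, and at 7.73% of all genes. The AP-1 letters TGANTCA were found in none of the 28 and in 8.06% of all genes, and the EGR letters GCGTGGGCG at LSS (3.57%) and in 0.886% of all genes. IDI1's match to TGACGT lies before another of its starts than the one printed. The windows were searched on both strands, and matches to short letters are a description of the sequence.

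The libraries held 7527026 to 130075914 counts, the lowest in TPA+H89 1 and the highest in TPA 2. Levels are given as CPM, the count of a gene relative to its library's total after TMM normalization, which sets the libraries on a common scale but does not correct for gene length. All 12 fibroblast markers were above 1 CPM in every library, while summed endothelial, leukocyte and hepatocyte markers reached at most 7.76, 3.4 and 1.01 CPM. Summed keratinocyte markers lay between 6.92 and 44.9 CPM and melanocyte markers between 23.5 and 53.9 CPM. Most of these sums was KRT10 (6.28 to 44.4 CPM) and MITF (20.6 to 51.8 CPM). The other keratinocyte markers reached at most 1.18 CPM (CDH1) and the other melanocyte markers at most 4.48 CPM (SOX10). Summed adipocyte markers, which share PPARG with fibroblasts, lay between 6.24 and 27.3 CPM. From the counts the libraries fell into 3 technical sets. Set A holds control 1 and EGF 1, the only libraries with more genes at 1 count than at 2 counts. In set B the mitochondrial rRNA genes RNR1 and RNR2 took 11.7% to 30.4% of counts, and it holds control 2, EGF 2 and the first replicate of each other treatment. TPA 1 and TPA+H89 1 had the lowest shares in set B, 11.7% and 12.0%, and come from another run of sample names than control 2. Set C holds the other 7 libraries, with no such counts. The running numbers in the sample names place TPA 2, H89 3 and TPA+H89 2 together with control 4. Controls 3 and 4 are identical, and which of these samples the counts come from is not known. Whether TPA 2, H89 3 and TPA+H89 2 have a control of their own is therefore not known either.

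The members stood high in 4 of the 12 treated libraries. Their median level relative to the mean of the controls was 2.77-fold in H89 3, 2.74-fold in TPA+H89 1, 2.37-fold in TPA 1 and 1.39-fold in TPA+H89 2. It was 1.12-fold in TPA 2, where a few members were high and others low. In the other 7 treated libraries it lay between 0.881-fold (EGF+H89 1) and 1.11-fold (H89 2), against 0.926-fold to 1.12-fold in the controls themselves. The summed level of all 32 was 2227, 1950 and 2081 CPM in the controls. It was 6284 and 3625 CPM in the TPA libraries, 2102, 2345 and 6552 CPM in the H89 libraries and 5950 and 3535 CPM in the TPA+H89 libraries. With EGF it was 1881, 2138 and 2025 CPM, and with EGF+H89 2229 and 2212 CPM. In this sum, replicates of TPA, H89 and TPA+H89 differed more from each other than the EGF libraries differed from the controls. In bulk RNA, more cells of a type and more RNA per cell cannot be told apart.

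**Figure D1:**
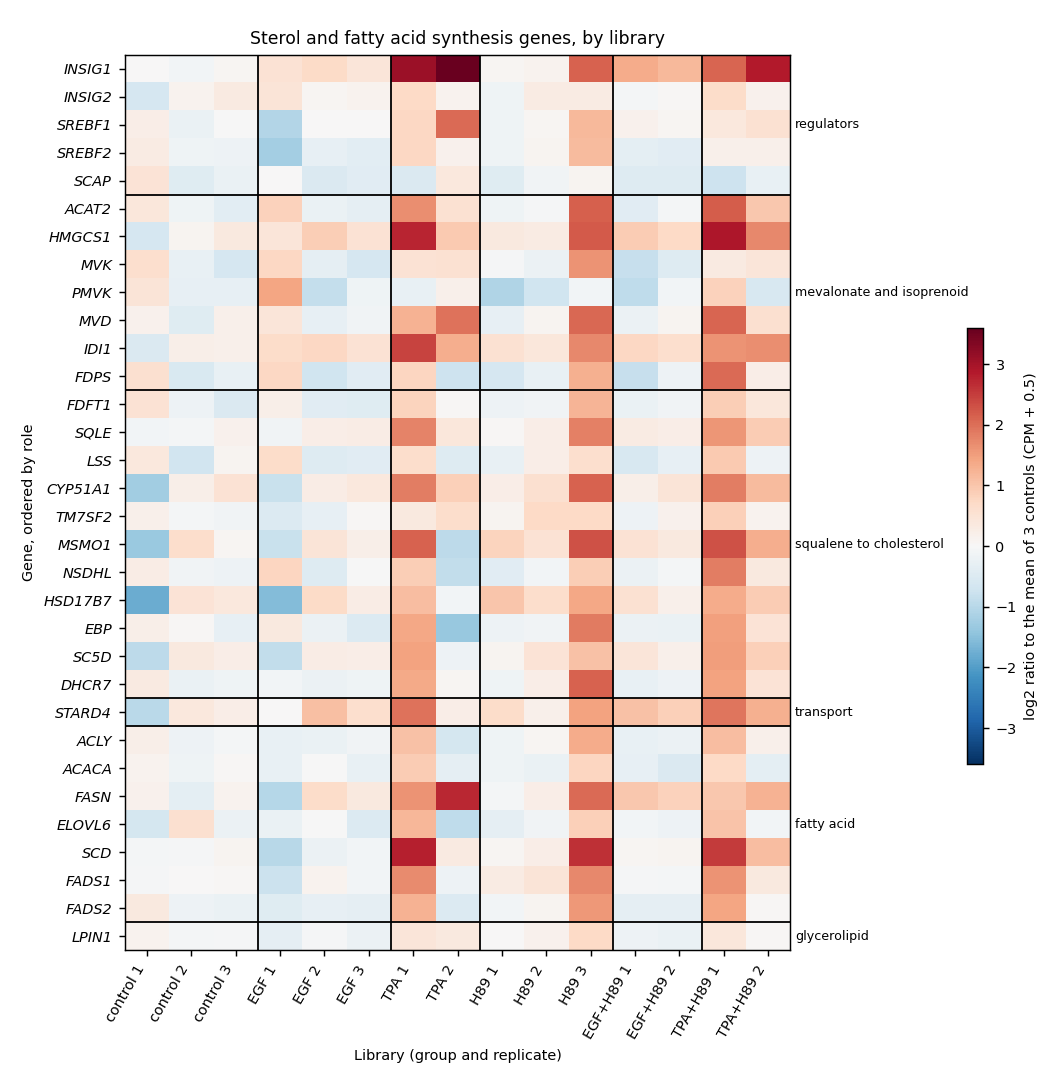
Level of each of the 32 genes (rows, grouped by role) in each of the 15 libraries (columns), as the log2 ratio to the mean of the 3 controls (CPM + 0.5; red higher, blue lower). Columns TPA 1, H89 3 and TPA+H89 1 are high across most rows, TPA 2 in some rows only, and the EGF 1 column holds both low rows (SREBF1, SREBF2, FASN and SCD among them) and high ones (PMVK).

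A second reading counts, library by library, the members at or above 1.5 times the highest control. There were 27 of 32 in H89 3 (84.4%, against 3.04% of the 18575 genes tested), all but INSIG2, SCAP, PMVK, LSS and ELOVL6. TPA+H89 1 had 22 (68.8%, against 10.8%) and TPA 1 had 21 (65.6%, against 5.69%). TPA+H89 2 had 9 (28.1%, against 2.85%): INSIG1, HMGCS1, IDI1, SQLE, CYP51A1, MSMO1, STARD4, FASN and SCD. TPA 2 had 6 (18.8%, against 15.8%), INSIG1, SREBF1, HMGCS1, MVD, IDI1 and FASN, a share close to that of all genes in this library. The other libraries had 0 to 3 members past this line. EGF 1 had 1 (PMVK, background 8.73%), with 5 at or below the lowest control divided by 1.5 (SREBF1, SREBF2, FASN, SCD and FADS1, against 10.8% of all genes), EGF 2 had 2 (INSIG1 and STARD4, background 4.17%) and EGF 3 had 0 (background 2.5%). H89 1 had 0 (background 1.09%) and H89 2 had 1 (TM7SF2, background 0.797%). EGF+H89 1 had 3 (INSIG1, STARD4 and FASN, background 2.39%) and EGF+H89 2 had 2 (INSIG1 and FASN, background 2.67%). At a line of 2 times the highest control, an alternative added after the data were seen, the counts were 17 in H89 3 (0.931% of all genes), 17 in TPA+H89 1 (5.38%), 15 in TPA 1 (2.29%), 5 in TPA 2 (9.2%) and 4 in TPA+H89 2 (1.34%). Each of these is 1 library with no replicate check.

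**Figure D2:**
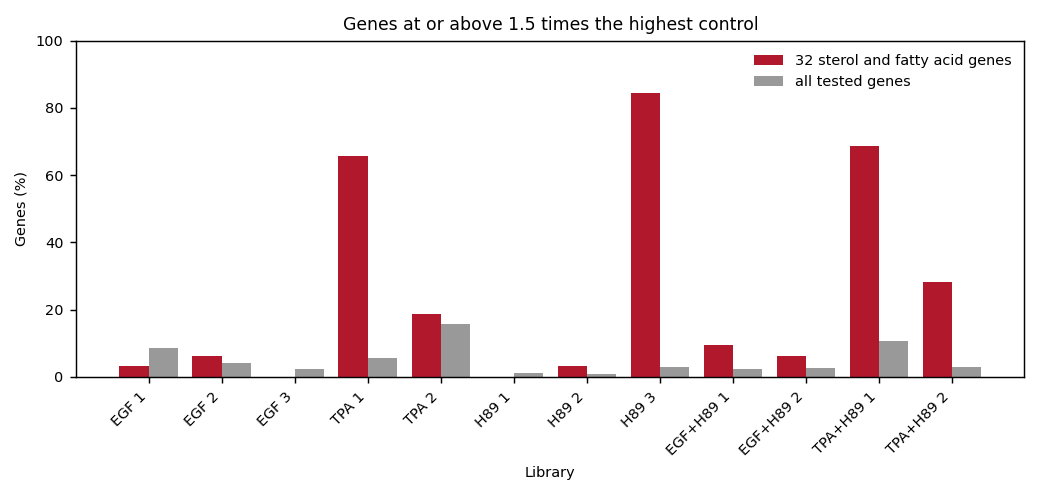
Share of the 32 genes (red) and of all tested genes (grey) at or above 1.5 times the highest control, in percent, for each treated library. The red bar reaches 84.4% in H89 3, 68.8% in TPA+H89 1 and 65.6% in TPA 1, and is close to the grey bar in TPA 2.

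Among the regulators, INSIG1, the sterol sensor that retains SCAP in the endoplasmic reticulum, had the widest range. Its level was 55.2, 51.0 and 56.7 CPM in the controls and 77.9, 87.1 and 73.0 CPM with EGF. It was 459 and 644 CPM with TPA and 234 and 398 CPM with TPA+H89. H89 alone gave 57.2, 59.4 and 239 CPM and EGF+H89 137 and 122 CPM. Every treated library lay above the highest control, both TPA libraries lay above all others, and H89 3 stood far above H89 1 and H89 2. INSIG2, its paralogue, was at 4.56, 7.98 and 9.06 CPM in the controls, 12.1 and 7.87 CPM with TPA and 6.46, 8.88 and 8.98 CPM with H89, and the groups overlapped. It was at 10.2, 7.66 and 7.91 CPM with EGF, 6.87 and 7.37 CPM with EGF+H89 and 11.7 and 8.09 CPM with TPA+H89, again overlapping the controls. Per kilobase of exon, INSIG1 was at 14.9 ± 0.777 CPM (SD, n = 3) and INSIG2 at 1.82 ± 0.596 CPM (SD, n = 3) in the controls, so their levels per length did not overlap.

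SREBF1 encodes the factors SREBP-1a and SREBP-1c, which counts per gene do not separate. Its level was 70.0, 50.7 and 58.6 CPM in the controls, 100.1 and 248 CPM with TPA, 54.0, 62.8 and 135 CPM with H89 and 78.2 and 87.5 CPM with TPA+H89. TPA 2 stood above all other libraries for it. SREBF1 was at 28.6, 59.9 and 60.0 CPM with EGF and 66.4 and 62.9 CPM with EGF+H89, where the groups overlapped the controls. SREBF2, the gene of the main cholesterol factor, was at 137, 99.6 and 97.8 CPM in the controls, 47.2, 89.9 and 85.8 CPM with EGF and 86.5 and 83.2 CPM with EGF+H89, each of these 5 treated libraries below every control. It was at 187 and 123 CPM with TPA, 99.6, 119 and 244 CPM with H89 and 126 and 127 CPM with TPA+H89. H89 3 and TPA 1 were its highest libraries. SCAP was at 130.3, 67.8 and 77.6 CPM in the controls, 63.9 and 120.3 CPM with TPA and 68.3, 83.5 and 98.4 CPM with H89, and is one of the members that were not above the controls in H89 3.

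**Figure D3:**
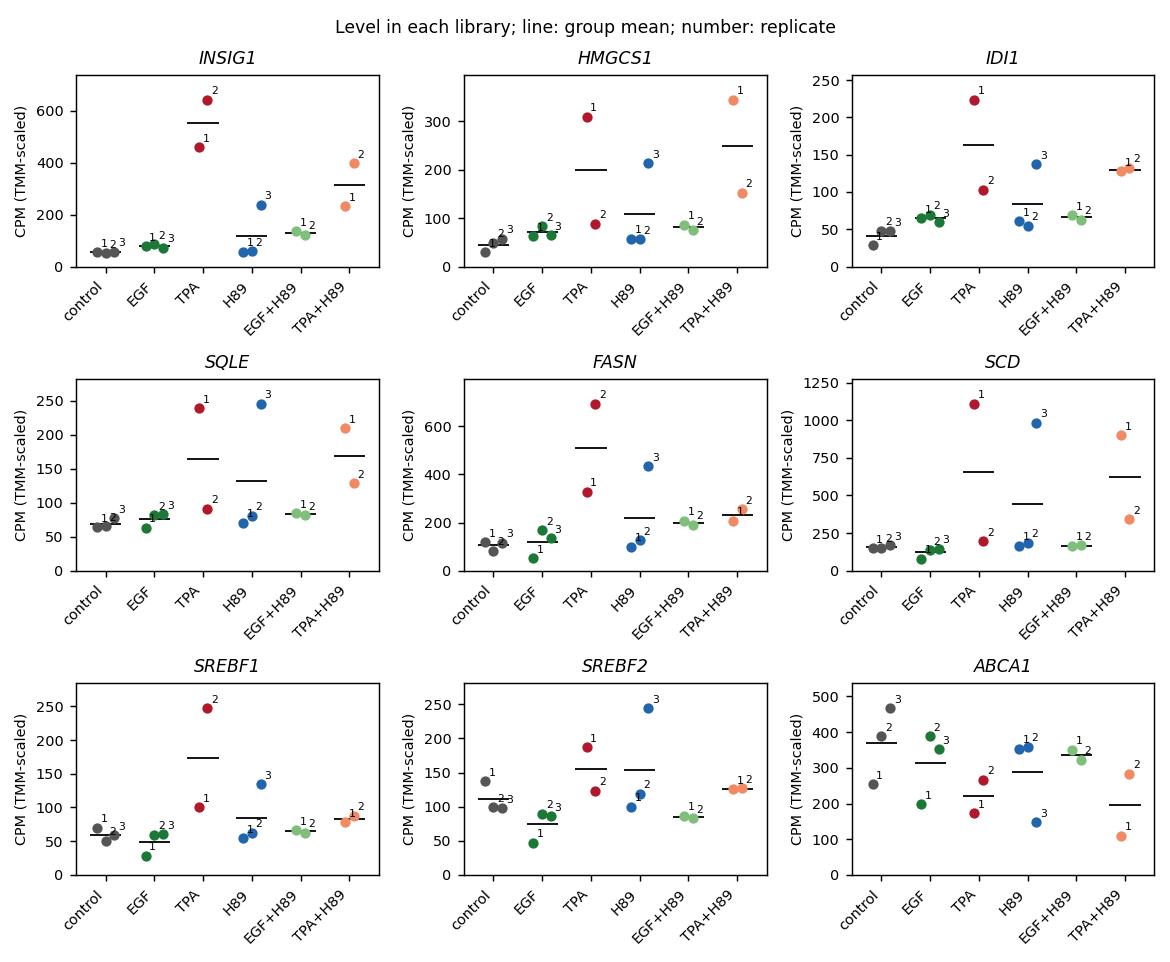
Normalized level (TMM-scaled CPM, vertical axes) by treatment group of 8 of the 32 genes and of ABCA1, a cholesterol efflux gene outside the list. Each point is 1 library with its replicate number, and lines are group means. INSIG1 is at 459 and 644 CPM in the TPA libraries, SCD is high in TPA 1 and FASN highest in TPA 2, and H89 3 lies apart from H89 1 and H89 2 in all 9 panels.

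In the mevalonate and isoprenoid branch, IDI1, which interconverts the isoprenoid building blocks, was at 28.2, 47.8 and 47.1 CPM in the controls and 224 and 103 CPM with TPA. It was at 64.5, 69.7 and 59.6 CPM with EGF, 60.5, 54.6 and 137 CPM with H89, 69.1 and 63.0 CPM with EGF+H89 and 128 and 132 CPM with TPA+H89. Like INSIG1, IDI1 was above the highest control in every treated library. HMGCS1, the synthase that makes HMG-CoA, was at 29.8, 48.8 and 57.8 CPM in the controls, 62.2, 83.7 and 65.0 CPM with EGF and 309.6 and 88.3 CPM with TPA. It was at 57.6, 56.2 and 214 CPM with H89, 86.4 and 75.0 CPM with EGF+H89 and 345 and 152 CPM with TPA+H89. The first TPA and the first TPA+H89 library were highest, followed by H89 3. MVD, the decarboxylase that closes the mevalonate pathway, was at 44.9, 29.4 and 45.5 CPM in the controls, 95.8 and 155 CPM with TPA, 32.1, 42.4 and 168 CPM with H89 and 172 and 59.7 CPM with TPA+H89. It was at 53.8, 32.4 and 36.8 CPM with EGF and 34.4 and 42.7 CPM with EGF+H89. Here TPA 2 was the higher of the TPA libraries. ACAT2, a thiolase that joins acetyl-CoA units, was at 32.04, 21.4 and 18.4 CPM in the controls, 77.2 and 35.5 CPM with TPA and 21.5, 23.3 and 108 CPM with H89. It was at 43.3, 20.4 and 19.2 CPM with EGF, 17.99 and 22.6 CPM with EGF+H89 and 110.1 and 47.7 CPM with TPA+H89. H89 3 and the first TPA+H89 library were highest. The mevalonate kinase MVK was at 22.9, 12.2 and 9.54 CPM in the controls and 21.4 and 21.9 CPM with TPA. The next kinase, PMVK, was at 12.0, 6.90 and 6.97 and 7.13 and 9.78 CPM in the same groups, and FDPS, which makes farnesyl diphosphate, at 61.2, 27.7 and 33.5 and 69.5 and 24.4 CPM. These 3 genes overlapped between TPA and control.

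In the branch from squalene to cholesterol, SQLE, the monooxygenase that oxidises squalene, was at 63.8, 65.5 and 77.0 CPM in the controls, 238 and 91.1 CPM with TPA, 70.6, 80.8 and 245 CPM with H89 and 209 and 129 CPM with TPA+H89. It was at 63.2, 81.7 and 83.2 CPM with EGF and 84.8 and 81.3 CPM with EGF+H89. CYP51A1, the lanosterol demethylase, was at 33.0, 92.4 and 114 CPM in the controls, 287 and 144 CPM with TPA, 94.1, 119.6 and 347 CPM with H89 and 290.1 and 176 CPM with TPA+H89. With EGF it was at 45.9, 96.0 and 105 CPM and with EGF+H89 at 92.3 and 111 CPM. For both genes every TPA and TPA+H89 library was above every control, and H89 3 was the highest library of all. MSMO1, the next methyl sterol oxidase, was at 35.3, 139.8 and 94.9 CPM in the controls and 394 and 46.5 CPM with TPA, so that TPA 1 was 8.48 times TPA 2. EBP, the sterol isomerase, was at 16.6, 14.9 and 11.6 CPM in the controls and 38.5 and 5.30 CPM with TPA, 7.26 times higher in TPA 1. In H89 3 MSMO1 reached 439 CPM and EBP 53.9 CPM, both above every control. The reductase DHCR7, which makes cholesterol from its last precursor, was at 64.4, 42.7 and 45.8 CPM in the controls, 132 and 53.4 CPM with TPA and 45.8, 60.8 and 222 CPM with H89. SC5D, the desaturase before it, was at 15.9, 39.6 and 36.6 CPM in the controls, 84.2 and 27.2 CPM with TPA and 32.8, 43.0 and 64.2 CPM with H89. SC5D was at 16.3, 37.3 and 36.0 CPM with EGF, 41.4 and 35.2 CPM with EGF+H89 and 87.7 and 56.0 CPM with TPA+H89. Both genes had a high TPA 1 and a high H89 3, with TPA 2 inside the control range only through control 1. TPA 2 lay above controls 2 and 3 for DHCR7 and below them for SC5D. TM7SF2, a sterol reductase, was low throughout, at 5.34, 4.38 and 4.23 CPM in the controls and 6.13 and 7.48 CPM with TPA. It was at 3.19, 3.73 and 4.85 CPM with EGF, 5.01, 8.03 and 8.04 CPM with H89, 4.07 and 5.21 CPM with EGF+H89 and 8.75 and 5.15 CPM with TPA+H89. FDFT1, LSS, NSDHL and HSD17B7 overlapped between TPA and control.

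STARD4, a cytosolic carrier of cholesterol, was at 27.5, 70.4 and 63.7 CPM in the controls, 54.7, 114 and 82.2 CPM with EGF, 210.2 and 64.2 CPM with TPA and 84.7, 61.7 and 147 CPM with H89. It was at 113 and 98.0 CPM with EGF+H89 and 205 and 133 CPM with TPA+H89. All 4 libraries that combined a mitogen with H89 were above every control. LPIN1, a phosphatidate phosphatase of glycerolipid synthesis, was at 70.3, 61.1 and 62.5 CPM in the controls, 87.4 and 82.0 CPM with TPA and 65.5, 72.5 and 106 CPM with H89. It was at 51.1, 62.5 and 56.0 CPM with EGF, 57.4 and 54.5 CPM with EGF+H89 and 86.4 and 66.0 CPM with TPA+H89. Its range was narrow, with H89 3 highest.

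Among the fatty acid enzymes, FASN, the fatty acid synthase, was at 119, 82.5 and 116 CPM in the controls and 328 and 693 CPM with TPA. It was at 51.6, 168 and 136 CPM with EGF, 99.8, 126 and 434 CPM with H89, 207 and 190.3 CPM with EGF+H89 and 207 and 255 CPM with TPA+H89. TPA 2 was its highest library, and all 4 combined libraries lay above every control. SCD, the desaturase that makes oleate, was at 150.3, 154 and 171 CPM in the controls, 1109 and 197 CPM with TPA, 166, 185 and 983 CPM with H89 and 901 and 342 CPM with TPA+H89. TPA 1, H89 3 and TPA+H89 1 carried nearly all of this, and TPA 1 was 5.62 times TPA 2. With EGF, SCD was at 79.4, 137 and 147 CPM, below every control, and with EGF+H89 at 165 and 169 CPM. FADS1 and FADS2, the desaturases of polyunsaturated fatty acids, overlap each other's locus. FADS1 was at 79.2, 82.3 and 83.9 CPM in the controls, 268 and 72.0 CPM with TPA and 99.9, 113 and 272 CPM with H89. It was at 47.9, 89.8 and 76.01 CPM with EGF, 78.8 and 77.7 CPM with EGF+H89 and 254 and 104 CPM with TPA+H89. FADS2 was at 219, 151 and 147 CPM in the controls, 410.5 and 124 CPM with TPA and 162, 185 and 511 CPM with H89. It was at 128, 141 and 139 CPM with EGF, 138 and 137 CPM with EGF+H89 and 466 and 177 CPM with TPA+H89. TPA 2 lay below every control for both, as it did for 27.6% of all genes tested. ACLY, ACACA and ELOVL6, which make cytosolic acetyl-CoA and malonyl-CoA and lengthen the chain, showed the same split, with TPA 1 above and TPA 2 below the controls. Per kilobase of exon, ACLY had the highest mean control level of the members, at 41.3 ± 5.91 CPM (SD, n = 3). HSD17B7 had the lowest mean, at 1.08 ± 0.732 CPM (SD, n = 3), through control 1. In controls 2 and 3 TM7SF2 was lower (1.28 and 1.24 CPM) than HSD17B7 (1.56 and 1.45 CPM). MSMO1 exceeded ACLY in control 2.

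TPA against control was tested with edgeR's quasi-likelihood test over all 18575 genes, with the spread estimated from all 6 groups and Benjamini-Hochberg adjustment. INSIG1 was the one member that rose past an adjusted p of 0.05, against 0.415% of all genes tested called in this comparison. Its log2 fold change was 3.35 ± 0.53 (SE), from 54.3 ± 2.95 CPM (SD, n = 3) to 551.5 ± 130.4 CPM (SD, n = 2), with an edgeR adjusted p of 0.0164. Both TPA libraries were above all 3 controls. The call rests on few libraries: edgeR's adjusted p was 0.148 without TPA 2 and 0.0685, 0.134 and 0.0854 without controls 1, 2 and 3, while the fold change stayed between 3.08 and 3.54 on the log2 scale. A fit restricted to these 2 groups called 0 members.

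The other members did not pass. IDI1 came closest, with 2.00 ± 0.41 on the log2 scale and an edgeR adjusted p of 0.0628, followed by FASN with 2.27 ± 0.60 and 0.19, HMGCS1 with 2.13 ± 0.62 and 0.209, and SREBF1 with 1.54 ± 0.45 and 0.21. DESeq2, run as an alternative, called 5 members higher, INSIG1, SREBF1, HMGCS1, IDI1 and FASN, and 2.87% of all genes to which it gave an adjusted p. By role, 1 of 5 regulators was called by edgeR, and 0 of 7 mevalonate and isoprenoid genes, 0 of 11 squalene to cholesterol genes, 0 of 7 fatty acid genes, and neither STARD4 nor LPIN1. At an unadjusted p under 0.05 there were 10 members, against 13.2% of all genes tested: 2 regulators, 3 of the mevalonate genes, 2 of the squalene to cholesterol genes, 2 of the fatty acid genes and STARD4. The members' median log2 fold change was 0.66, against -0.02 over all genes, and 31 of 32 were positive, against 48.7% of all genes. Both TPA libraries lay above every control for 12 members (37.5%, against 9.6% of all genes): INSIG1, SREBF1, ACAT2, HMGCS1, MVD, IDI1, SQLE, CYP51A1, TM7SF2, FASN, SCD and LPIN1.

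The TPA libraries differed in which members were high. TPA 1 was above the highest control for 29 members, all but SCAP, MVK and PMVK, against 24% of all genes. TPA 2 was above it for 12 (31% of all genes), inside the control range for 12 (41.4%) and below it for 8 (27.6%). Each of these shares of the members was near that of all genes in this library. The control range includes control 1, whose technical set A holds no TPA or H89 library. The 8 below were FDPS, NSDHL, EBP, ACLY, ACACA, ELOVL6, FADS1 and FADS2. TPA 2 exceeded TPA 1 for 8 members, INSIG1, SREBF1, SCAP, MVK, PMVK, MVD, TM7SF2 and FASN, against 47.5% of all genes, and the median ratio of TPA 1 to TPA 2 was 2.29. Left out in turn, the members' median log2 difference from control was 1.25 without TPA 2 and 0.13 without TPA 1. Within technical sets it was 1.32 in set B (TPA 1 and control 2, 31 of 32 positive) and 0.23 in set C (TPA 2 and control 3, 19 of 32 positive). TPA 1 and control 2 come from different runs of sample names, with RNR1 and RNR2 at 11.7% and 30.4% of counts. INSIG1 differed by 3.16 and 3.49 on the log2 scale within the same sets.

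**Figure D4:**
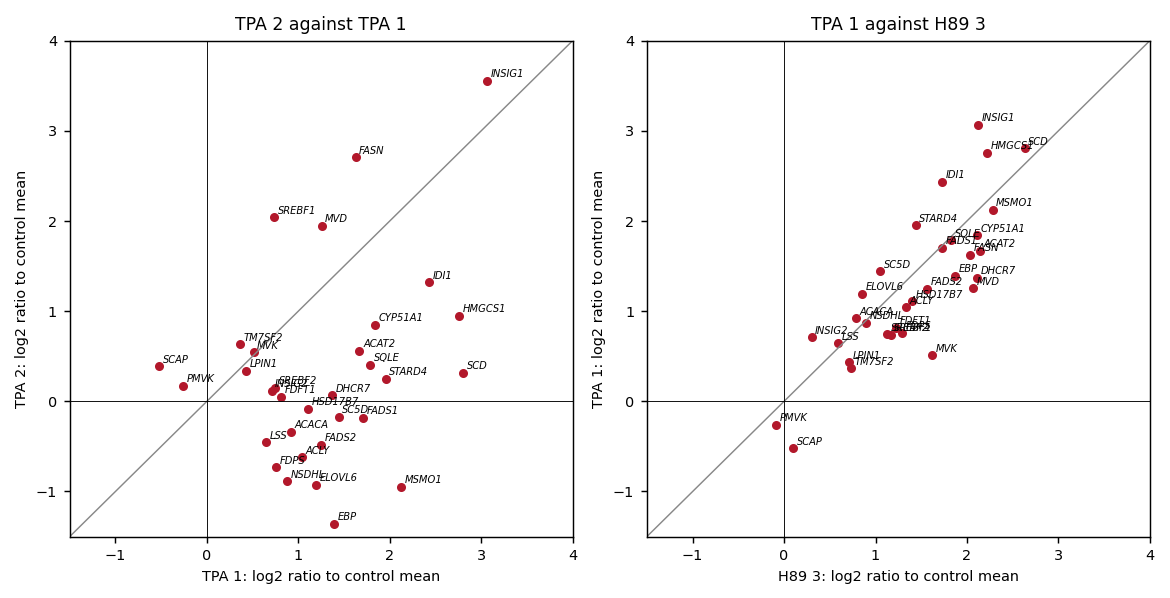
log2 ratio to the control mean of each of the 32 genes (points), in TPA 2 against TPA 1 (left) and in TPA 1 against H89 3 (right), with the grey diagonal at equal values. On the left SREBF1, FASN and MVD lie above the diagonal and MSMO1, EBP and SCD far below it. On the right SCAP and PMVK lie low on both axes, and both axes use the same control mean.

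In H89 against control the question was whether the inhibitor alone moved these genes. No member passed edgeR's test (0 of 32, against 0% of all genes), 4 members had an unadjusted p under 0.05 (3.27% of all genes), and DESeq2 called 0 (0.012% of all genes). These 4 were IDI1, INSIG1, HMGCS1 and CYP51A1. IDI1 was at 1.04 ± 0.37 on the log2 scale, and INSIG1 at 1.12 ± 0.46, both with an edgeR adjusted p of 1. The members' median was 0.73 with H89 3 and 0.03 without it. H89 3 was above every control for 29 members, all but INSIG2, SCAP and PMVK (21.6% of all genes), and above both H89 1 and H89 2 for all 32 (38.2%), with a median ratio of 2.58 to their mean. H89 1 lay inside the control range, which again includes control 1 of set A, for 23 members (70.1% of all genes) and H89 2 for 19 (70%). All 3 H89 libraries were above every control for 4 members, INSIG1, IDI1, HSD17B7 and FADS1 (background 2.85%). Within set B (H89 1) the median difference was 0.10, and within set C, where H89 2 and H89 3 were averaged, it was 0.84. Taken apart against the mean of all 3 controls, the members' median log2 ratio was 0.15 in H89 2 and 1.42 in H89 3. Whether H89 3 has a control from its own run of sample names is not known. A difference in that run and a difference from H89 therefore cannot be told apart.

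In EGF against control no member passed edgeR's test (0 of 32, against 0.0269% of all genes), 0 had an unadjusted p under 0.05 (1.63% of all genes) and DESeq2 called 0 (0.373%). The members' median log2 fold change was 0.03, against 0.02 for all genes, and 17 of 32 were positive. All 3 EGF libraries were above every control for INSIG1, HMGCS1 and IDI1 (background 2.97%), with log2 fold changes of 0.55 ± 0.46, 0.63 ± 0.56 and 0.66 ± 0.37 (SE). All 3 were below every control for SREBF2, SCD and FADS2 (background 1.99%). Within the 3 technical sets INSIG1 differed from its control by 0.49, 0.77 and 0.36 on the log2 scale. The members' median within sets A, B and C was 0.14, -0.05 and -0.04.

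**Figure D5:**
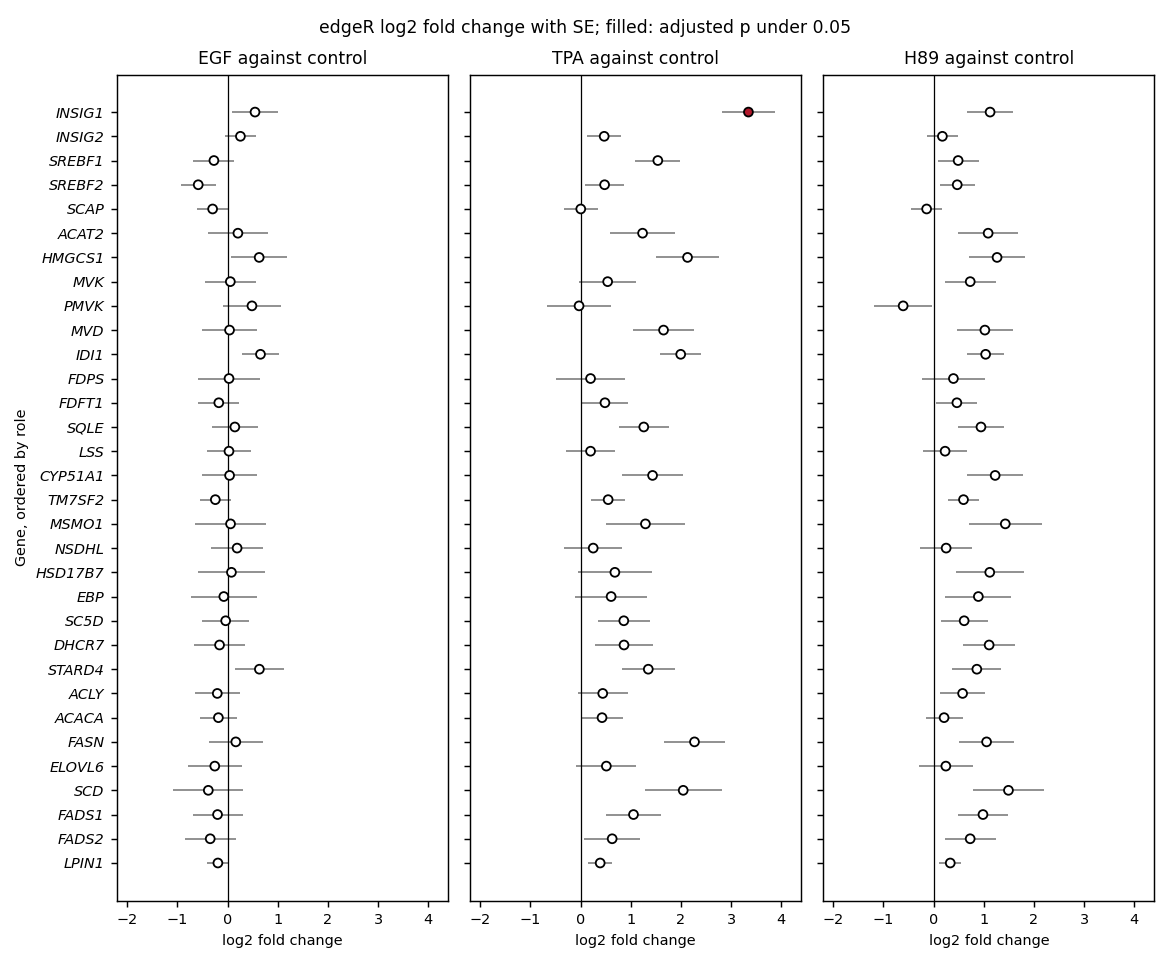
log2 fold change of each of the 32 genes against control (edgeR, points, with bars of 1 standard error) for EGF, TPA and H89, ordered by role. The filled point, INSIG1 after TPA, is the one gene past an adjusted p of 0.05, and the EGF points lie between -0.59 and 0.66.

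Adding H89 to a mitogen was tested against the mitogen alone. In TPA+H89 against TPA no member passed (0 of 32 and 0% of all genes with edgeR), 0 had an unadjusted p under 0.05 (7% of all genes), and DESeq2 called 0 (0.148%). Both TPA+H89 libraries lay below both TPA libraries for 4 of the 32 members, a share close to the 11.1% of all genes. These members were INSIG1, SREBF1, FASN and MVK. Their log2 fold changes were -0.81 ± 0.57, -1.07 ± 0.50, -1.14 ± 0.67 and -0.16 ± 0.62 (SE), the lowest edgeR adjusted p of any member being 0.716. All 11 squalene to cholesterol genes had positive values here, with a median of 0.29, and 0 of the 5 regulators, with a median of -0.50, against 44.8% of all genes positive. The members' median was 0.09 with all libraries, -0.30 without TPA 2 and 0.89 without TPA 1, so its direction rests on which TPA library is kept. TPA 1 and TPA+H89 1 share a technical set and a run of sample names, as do TPA 2 and TPA+H89 2. Within these, TPA+H89 1 exceeded TPA 1 for 17 members (41.8% of all genes) and TPA+H89 2 exceeded TPA 2 for 22 (47.2%). Both TPA+H89 libraries were above every control for 18 members (56.2%, against 10.9% of all genes). TPA+H89 1 exceeded TPA+H89 2 for 25 members (43.9% of all genes). RMRP, a non-coding RNA, took 13.4% of the counts of TPA+H89 1, which is also the shallowest library, and the part of either in these levels was not tested.

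In EGF+H89 against EGF no member passed edgeR's test (0 of 32 and 0% of all genes), 0 had an unadjusted p under 0.05 (1.67% of all genes), and DESeq2 called 0 (0.004%), with a median log2 fold change of 0.03. Both EGF+H89 libraries were above every control for 6 members, INSIG1, HMGCS1, IDI1, SQLE, STARD4 and FASN (background 8.33%), and below every control for 7, SREBF2, SCAP, ACLY, ACACA, FADS1, FADS2 and LPIN1 (background 9.49%). Against H89 alone, no member passed for EGF+H89 (background 0.0269%) or for TPA+H89 (background 0.0969%). At an unadjusted p under 0.05 there were 3 members for EGF+H89 (1.53% of all genes) and 1 for TPA+H89 (3.89%), and DESeq2 called 0 in both (0.331% and 0.443% of all genes). The members' median in EGF+H89 against H89 was -0.65 with H89 3 and -0.08 without it. In TPA+H89 against H89 it was 0.27, with 0.96 when H89 3 and -0.12 when TPA+H89 1 was left out. The time spent in H89 may differ between H89 alone, recorded at 0 h, and the combinations, recorded after 1 h of mitogen. The test of whether H89 acted differently with EGF than without gave 0 members with edgeR and with DESeq2 (background 0% for each), and 0 at an unadjusted p under 0.05 (0.258% of all genes). The same test for TPA gave 0 with both (background 0% for each), and 4 at an unadjusted p under 0.05 (4.78% of all genes).

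TPA against EGF had no member past edgeR's threshold (background 0%), with 13 members at an unadjusted p under 0.05 (13.4% of all genes) and a median log2 difference of 0.85. INSIG1 stood at 2.80 ± 0.52 (SE, edgeR adjusted p 0.234), and every TPA library exceeded every EGF library for it. DESeq2 called 4 members higher in TPA than in EGF, INSIG1, SREBF1, FASN and SCD, and 1.74% of all genes to which it gave an adjusted p.

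A further list of 32 genes of the same biology, none of them a member, was read in the same way. It holds proteases and ubiquitin factors of SREBP and INSIG, sterol trafficking and storage genes, LXR receptors and their efflux targets, other sterol and isoprenoid enzymes and other fatty acid enzymes. With edgeR 0 of the 32 passed in any comparison, against at most 0.415% of all genes tested. In TPA against control the list's median log2 fold change was 0.27. An unadjusted p under 0.05 was reached there by 4 of the 32, a share near the 13.2% of all genes tested. These 4 were NR1H3, the receptor LXRα, at -1.11 ± 0.31 (SE, edgeR adjusted p 0.204), NPC2, a lysosomal cholesterol carrier, at -1.06 ± 0.41 (adjusted p 0.316), ME1, the malic enzyme that supplies NADPH, at 0.95 ± 0.42 (adjusted p 0.365) and TECR, a reductase of chain elongation, at -1.19 ± 0.53 (adjusted p 0.368). NR1H3 was at 25.7, 17.9 and 15.8 CPM in the controls and 7.99 and 10.3 CPM with TPA, and NPC2 at 94.0, 67.4 and 48.0 CPM in the controls and 35.8 and 31.0 CPM with TPA. Both were below every control in each TPA library. TMEM97, ABCA1 and MYLIP are described for their values, which were seen before they were chosen. TMEM97, a sterol-regulated membrane protein, was at 83.9, 106 and 62.6 CPM in the controls, 344 and 24.1 CPM with TPA and 110.3, 70.7 and 389 CPM with H89, and so shared the split between libraries seen in MSMO1 and EBP. The LXR receptors and efflux genes, which act when sterols are in excess, had mostly negative values. In TPA against control 4 of 5 were negative, all but NR1H2, with a median of -0.75, where 48.7% of all genes were positive. In H89 against control it was 5 of 5, with a median of -0.31 and 45.2% of all genes positive, and in EGF against control 4 of 5, with a median of -0.08 and 53.2% positive. ABCA1, the cholesterol efflux pump, was at 255, 388 and 468 CPM in the controls, 173 and 267 CPM with TPA, 354, 359.8 and 147 CPM with H89 and 109.7 and 283 CPM with TPA+H89. Its lowest libraries were TPA+H89 1, H89 3 and TPA 1, where most members were high. MYLIP, a ubiquitin ligase induced by LXR, was at 21.8, 22.1 and 29.5 CPM in the controls and 25.6, 25.1 and 10.6 CPM with H89, with H89 3 lowest. In H89 1 and H89 2 both ABCA1 and MYLIP lay inside the control range, for ABCA1 only through control 1. None of these 5 genes passed the test in these comparisons.

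Reads at some members may be shared with other genes. In GENCODE 29, CYP51A1, STARD4, IDI1, FDPS, ACAT2, MVK, SREBF1, FADS1 and FADS2 overlap genes on the opposite strand. FADS1, FADS2 and TM7SF2 overlap genes on their own strand. The libraries were strand-specific, but the strand setting of the counting is not given in the sources used here. FDPS and HSD17B7 have pseudogene copies with rows of their own in the table, so their counts are uncertain.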

How the data were processed

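Raw gene counts were deposited as 1 table. HOMER, hg19 and GRCh37 are named in the submitters' processing notes. The aligner is not given in the sources used here, nor are the annotation and the strand setting, and the labels name several sequencers without tying them to samples. The deposited counts of control 4 equal those of control 3 in every gene, and 1 of them was used. The members, roles and related genes were chosen with earlier results of these data known.

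Genes with enough counts for edgeR's filter (minimum count 10) were kept, 18575 of 28374, and all 32 members were among them. Counts were scaled by TMM and tested by edgeR 4.0.16 (quasi-likelihood, R 4.3.3, limma 3.58.1), with 1 model over all 6 groups and contrasts for each comparison. Adjusted p-values (Benjamini-Hochberg) cover all tested genes, with a threshold of 0.05. The SE printed with an edgeR fold change is derived from the test. It is the absolute log2 fold change divided by the square root of the test's F value. Log2 ratios in single libraries used CPM plus 0.5. Values in every library follow a rule: members with a call and up to 4 per role with the lowest p in TPA against control, with a few others named for their values after these were seen. The test script was tested on simulated data. DESeq2 1.42.0, other scalings, no filter, a term for the technical set, fewer groups and each library left out were tried as alternatives. Depth was 7527026 to 130075914 counts. Promoter windows came from RefSeq (GRCh38.p14) and were matched by symbol, and exon lengths came from GENCODE 29. No coordinates were moved between builds. One gene outside the members is not reported here.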

Additional observations from a re-analysis of the deposited data

Results flagged for a closer look

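For 3 members both TPA+H89 libraries lay on one side of the TPA libraries and both EGF+H89 libraries on the other side of the EGF libraries, with no overlap. This was 9.38% of the members and 1.04% of all genes tested. The difference between the 2 effects of H89 was tested with edgeR. INSIG1 was lower with TPA+H89 than with TPA and higher with EGF+H89 than with EGF, and the H89 effects differed by -1.51 on the log2 scale (SE 0.76, edgeR p 0.0681, adjusted p 1). For SREBF1 they differed by -1.45 (SE 0.674, edgeR p 0.0507, adjusted p 1) and for FASN by -1.89 (SE 0.896, edgeR p 0.0555, adjusted p 1). INSIG1 was also higher with H89 alone than in the controls, and the effect of H89 in TPA-treated cells differed from that by -1.93 (SE 0.733, edgeR p 0.0208, adjusted p 0.9). It was the only member with opposite, non-overlapping effects in that pair, 3.12% of the members against 0.867% of all genes. None of the 4 differences passed the adjusted threshold. INSIG1 in H89 1 and H89 2 was at 57.2 and 59.4 CPM, just above the highest control at 56.7 CPM, so the direction with H89 alone rests on small differences in these libraries and on H89 3. No group held 4 or more libraries, so single libraries within a group were not examined for outlying values.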

How the results depend on the processing

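The number of members called in TPA against control, 1 with edgeR over all groups, was 5 with DESeq2 and 2 with a term for the technical set (INSIG1 and IDI1). It was 0 with only the compared groups in the fit, 0 when tested against a log2 fold change of 1, and 0 without control 1, EGF 1 and TPA 2 together. Leaving out 1 library at a time gave 0 to 3: 0 without any of the 3 controls or TPA 2, 3 (INSIG1, SREBF1 and FASN) without TPA 1 and 2 (INSIG1 and IDI1) without H89 3. In TPA against EGF the number was 0, with 4 by DESeq2, 1 with the term for the technical set and 0 to 2 with 1 library left out. In the other 8 comparisons it was 0 under every alternative run. The cause of these changes was not tested. No direction of a called value was reversed. The labels give no replicate numbers that groups share, so no pairs could be taken from them. A block for the runs of sample names left 1 member called in TPA against control and 0 elsewhere. In the single-library counts, DESeq2's size factors gave 20 members in TPA 1 and 21 in H89 3, and a line of 2 times the highest control gave 15 and 17. Groups of 2 or 3 libraries limit all of these tests.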
